A study of Mus musculus with 6 samples.

Results

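The phase II conjugation enzymes of the liver were followed in endothelial TAK1 knockout mice through every row of the gene table named as a glutathione transferase of the alpha, kappa, mu, omega, pi or theta class, a UDP-glucuronosyltransferase or a sulfotransferase. The names gave 60 genes of the 24318 rows, namely 20 glutathione transferases, 21 glucuronosyltransferases and 19 sulfotransferases. Membership rested on the names alone, though the families were chosen with earlier results of these data known. Knockout livers came from tamoxifen-treated mice of genotype VEcadCreERT2/TAK1flox/flox on a C57BL/6 strain background, and control livers from mice of the same genotype and background with no treatment, with 3 libraries in each group. The Cre recombinase is driven by the promoter of the VE-cadherin gene and is active after tamoxifen, so the loxP-flanked gene of the kinase TAK1 (Map3k7) is a target for deletion in endothelial cells and not in hepatocytes. Both groups carry the Cre and the loxP-flanked alleles, and the controls received no tamoxifen, so deletion and drug cannot be told apart in any comparison. Age and sex are not given in the labels.

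Phase II enzymes attach a polar group to drugs, steroids, bilirubin, bile acids and reactive metabolites, which makes them easier to excrete in bile or urine. Glutathione transferases add the tripeptide glutathione, glucuronosyltransferases add glucuronic acid from UDP-glucuronic acid, and sulfotransferases add sulfate from the donor PAPS. Hepatocytes hold most of these enzymes in the liver, in amounts that differ with the position of the cell along the sinusoid, with sex and with inflammation.

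Values were FPKM, fragment counts scaled to transcript length and to library size, in whole liver RNA. Read numbers are unknown, and the spacing of low values put the libraries' depths at 0.921 to 1.08 times that of control 1. Map3k7 itself measured 9.28, 9.31 and 7.35 FPKM in knockout livers and 8.50, 9.02 and 9.14 FPKM in control livers, with a log2 fold change of -0.04 ± 0.16 (SE, limma adjusted p = 0.868), a whole-liver value that does not check a deletion in endothelial cells. In the table, 9 hepatocyte markers were found, and each measured at least 136 FPKM in every library. Their summed level was 21950 to 25610 FPKM in knockout and 21610 to 28980 FPKM in control livers, ranges that overlap. This sum joins opposite changes of abundant markers. Ttr averaged 2527 FPKM in knockout and 6049 FPKM in control livers, and Fgb 5767 and 3710 FPKM. Of the 9 markers, 2 were called lower and 1 higher, with a median log2 fold change of -0.35. In these bulk samples, fewer cells of a type and less RNA per cell cannot be told apart. The female transcript Xist was above 0 in all 6 libraries and 4 Y-linked genes were listed at 0 in all of them. Neutrophil markers were higher in knockout livers (8 of 8 called), at a summed 1701 to 1782 FPKM against 34.5 to 71.4 FPKM in control livers, and macrophage markers were higher too (5 of 7), at 1410 to 1568 FPKM in knockout and 489 to 1121 FPKM in control livers. Of 6 endothelial markers, 3 were lower (Clec4g, Kdr and Tek), and of 5 tested cholangiocyte markers Sox9 was higher and Krt19 lower. Among all genes tested, 14.1% were called higher and 13.0% lower, and at a mean of 5 FPKM or more 13.6% and 20.1%. The Krt19 call was lost without each library except knockout 2 (adjusted p up to 0.108), and that of the macrophage marker Csf1r without each except control 3 (adjusted p up to 0.0829). The part of these cells in the members' changes was not tested. The labels say only that samples were taken in triplicate, so a p-value here reflects only how far these samples spread, which may be technical.

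The members sit in few places of the genome. In GRCm38, 51 of the 60 genes lay in 10 clusters in which neighbours were at most 500000 bases apart, and 9 stood alone. The 7 mu class genes fill 149.1 kb of chromosome 3 (107895821 to 108044894), and the 8 Ugt1a genes overlap within 164.6 kb of chromosome 1 (88055388 to 88220002) because they share their last exons. A cluster on chromosome 5 (86889767 to 87591594) holds all Ugt2a and Ugt2b genes followed by Sult1b1, Sult1d1 and Sult1e1, and one on chromosome 7 (13623967 to 14494230) holds the 8 Sult2a genes.

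RefSeq promoter windows of 300 bases (250 before and 50 after the start, GRCm38.p6) were matched for 52 of the 60 genes. Both strands were searched for 8 motifs. The 52 members have 62 windows, and shares are given per gene on both sides, a gene being counted if any of its windows holds the motif; the 32851 windows in all belong to 27025 genes. The antioxidant response element core TGACNNNGC, bound by NRF2, was found for 3 members (5.77%) and for 14.0% of all genes, and the xenobiotic response element core GCGTG for 19.2% of members and 35.2% of genes. The HNF1 site, searched as GTTAAT, any base and ATT, was found for 8 members (15.4%) and 0.47% of genes, and its core GTTAAT for 25.0% and 8.24%. The 8 members were Sult2a3, Sult2a4, Sult2a5, Sult2a6, Ugt1a1, Ugt1a9, Ugt1a10 and Sult1d1, most of them from the Sult2a and Ugt1a clusters. Members of a cluster are not independent, so the share of members with any motif can rest on fewer places than genes. Every match to the longer site contains one to the core. The C/EBP site TTGCNNAA was found for 23.1% of members and 12.2% of genes, TATAAA for 23.1% and 15.7%, the nuclear receptor motif TGACCT for 23.1% and 18.1%, and the HNF4 site CAAAGTCCA for 1.92% and 0.555%. The window of Gsta3, the most abundant glutathione transferase in control livers, holds the NRF2 motif. The windows of Ugt1a1 and Sult2a6 hold the HNF1 site, and that of Ugt2b5 the C/EBP site. They are shown on the gene's strand, with the match in capitals, as examples of the 3 motifs.
Gsta3 (chr1:21240335-21240634, plus strand): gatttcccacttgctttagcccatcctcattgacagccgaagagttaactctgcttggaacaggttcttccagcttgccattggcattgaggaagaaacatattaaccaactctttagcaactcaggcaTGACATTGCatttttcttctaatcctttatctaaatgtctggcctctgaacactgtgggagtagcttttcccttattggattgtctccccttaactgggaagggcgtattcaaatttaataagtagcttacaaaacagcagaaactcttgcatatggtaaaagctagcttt
Ugt1a1 (chr1:88211709-88212008, plus strand): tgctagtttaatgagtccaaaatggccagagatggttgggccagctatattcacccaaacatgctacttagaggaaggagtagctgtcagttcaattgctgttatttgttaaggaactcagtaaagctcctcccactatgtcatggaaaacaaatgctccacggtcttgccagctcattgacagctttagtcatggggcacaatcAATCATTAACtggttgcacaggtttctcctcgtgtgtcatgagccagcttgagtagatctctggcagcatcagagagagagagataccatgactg
Ugt2b5 (chr5:87140291-87140590, minus strand): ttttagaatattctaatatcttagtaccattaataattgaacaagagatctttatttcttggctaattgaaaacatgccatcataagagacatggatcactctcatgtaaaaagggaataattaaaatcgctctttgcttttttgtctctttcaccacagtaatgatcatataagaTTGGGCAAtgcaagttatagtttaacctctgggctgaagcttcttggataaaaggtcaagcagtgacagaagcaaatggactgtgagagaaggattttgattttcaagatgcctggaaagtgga
Sult2a6 (chr7:14254821-14255120, minus strand): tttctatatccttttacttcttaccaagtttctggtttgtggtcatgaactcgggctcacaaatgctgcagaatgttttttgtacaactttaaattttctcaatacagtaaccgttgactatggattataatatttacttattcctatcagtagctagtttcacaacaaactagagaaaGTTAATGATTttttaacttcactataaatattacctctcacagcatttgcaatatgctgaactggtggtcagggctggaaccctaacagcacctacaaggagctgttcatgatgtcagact
Of the tested members with each motif, those called lower in knockout livers were 1 of 6 for the HNF1 site, 5 of 11 for its core, 9 of 10 for the C/EBP site, 5 of 9 for TATAAA, 6 of 11 for TGACCT, 3 of 8 for the xenobiotic and 2 of 3 for the antioxidant response element core, and 0 of 1 for the HNF4 site. Over all tested members this share was 66.7%, and over all genes tested 13.0%. These counts are small and no difference between motifs was tested. Matches are letters in a window and were not tested as binding sites.

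The comparison asks how the enzymes' transcripts differ between livers of tamoxifen-treated mice, where endothelial TAK1 is the target for deletion, and of untreated controls. Most of those that were expressed fell. Of the 60 members, 6 were listed at 0 in every library and 45 had a mean of at least 0.5 FPKM and were tested, with 30 lower, 1 higher and 14 not called at an adjusted p under 0.05 (limma on log2(FPKM + 0.5), a scale that understates changes of low genes, with Benjamini-Hochberg adjustment over 11842 genes). The 66.7% of tested members called lower compare with 13.0% of all genes tested, and the share called higher among all genes was 14.1%. At a mean of 5 FPKM or more, 29 of 38 members were lower (76.3%), against 20.1% of 6443 genes. The median log2 fold change of tested members was -0.99, and that of all genes tested -0.0007. With each library rescaled to the same total without Alb, 39.5% of all calls were higher instead of 52.1%, the median of all genes moved by -0.10 log2 units, and 32 members were lower and 1 higher. The groups did not overlap for 33 of the 45 members and for 43.5% of all genes tested. Every knockout library lay below every control library for 32 of those members and for 21.1% of all genes tested.

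**Figure D1:**
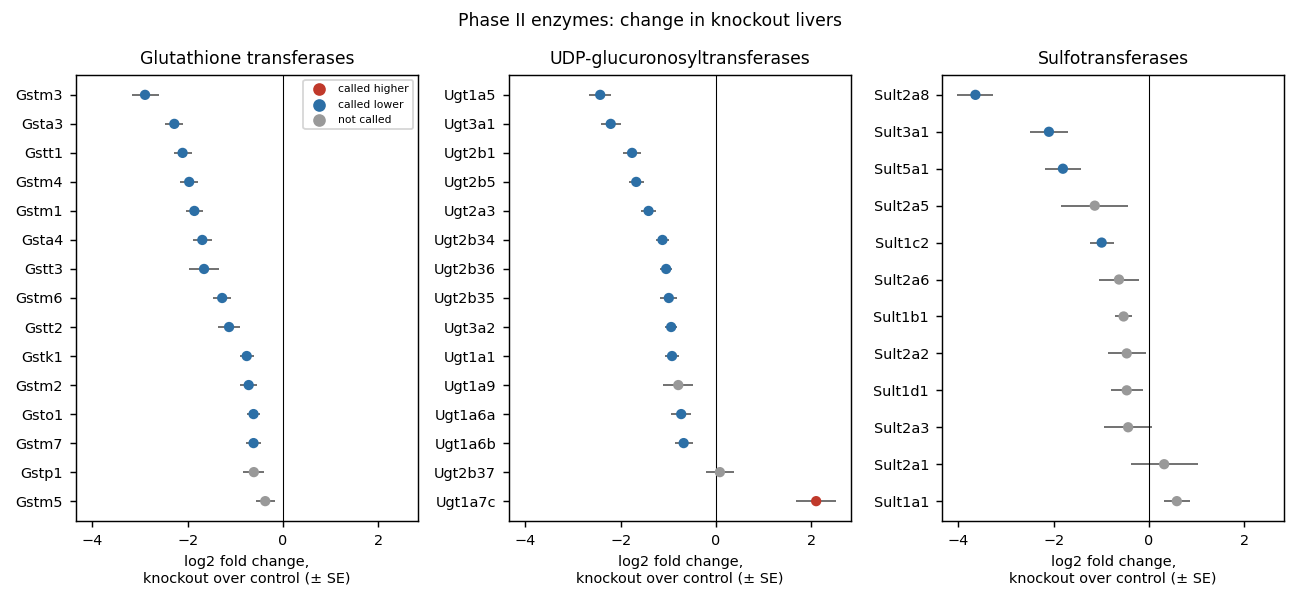
Log2 fold change (x axis, knockout over control on the log2(FPKM + 0.5) scale, bars: SE) of tested members in each family (y axis), without the 3 listed at 0 in every library of 1 group. Blue points were called lower, red higher and grey not called; all plotted glutathione transferases lie left of 0, and Ugt1a7c is the red point at 2.098.

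Summed over each family, the glutathione transferases showed the largest drop of the 3. Their summed level was 754, 696 and 909.6 FPKM in knockout livers and 2334, 2708 and 2296 FPKM in control livers. The knockout mean was 32.2% of the control mean. Glucuronosyltransferases summed to 697, 720.5 and 706 FPKM in knockout and 1508, 1559 and 1613 FPKM in control livers, or 45.4% of control. In both families the groups lay far apart. Sulfotransferases summed to 452, 594 and 432 FPKM in knockout and 884, 727 and 534 FPKM in control livers, or 68.9% of control, and here knockout 2 lay above control 3. No test was run on these sums.

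**Figure D2:**
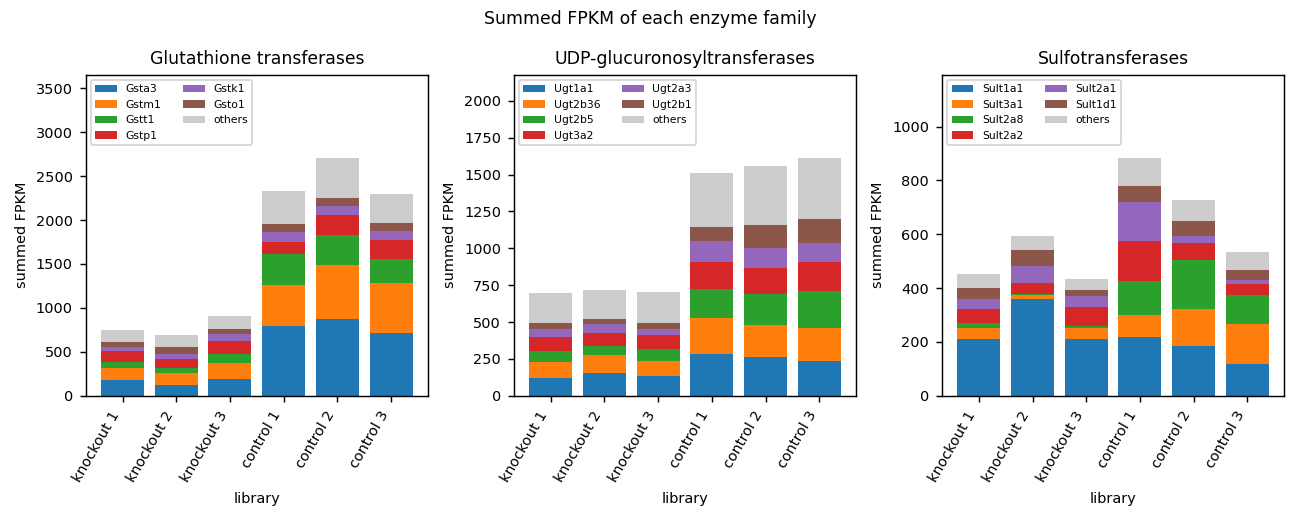
Summed FPKM (y axis) of each family in each library (x axis), stacked by the 6 most abundant members and all others. The glutathione transferase bars reach 696 to 909.6 FPKM in knockout and 2296 to 2708 FPKM in control livers, and the Sult1a1 segment spans 212 to 360.3 FPKM in knockout and 119 to 220.0 FPKM in control livers.

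Among glutathione transferases, 14 of 17 tested members fell and none rose (82.4% lower, median log2 fold change -1.28). The other members tested were Gsta1, Gstm5 and Gstp1. Alpha class enzymes conjugate electrophiles such as lipid peroxidation products and, in mouse, the epoxide of aflatoxin. Gsta3, the major alpha enzyme here, measured 179, 124 and 196 FPKM in knockout livers and 797, 877 and 715 FPKM in control livers. All knockout libraries were far below all controls, with a log2 fold change of -2.28 ± 0.19 (adjusted p = 9.65e-05). Gsta4, which acts on the lipid aldehyde 4-hydroxynonenal, averaged 18.9 ± 4.69 FPKM in knockout and 61.5 ± 9.42 FPKM in control livers (SD, n = 3 each, limma adjusted p = 5.25e-04). Gsta2 was listed at 0 in all 3 knockout libraries and at 11.7, 36.6 and 12.04 FPKM in control libraries (adjusted p = 7.21e-05), and its near copy Gsta1 was above 0 only in control 2, at 3.82 FPKM. In GENCODE, 64.2% of the 50-base stretches of the longest Gsta2 transcript and 89.7% of those of Gsta1 also occur in other genes, for Gsta2 most often in Gsta1, so the split of reads between them is uncertain.

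The mu class, which acts on a broad range of epoxides and quinones, fell in 6 of 7 members. Gstm1, its most abundant member, measured 141, 130 and 183 FPKM in knockout and 465, 616 and 564 FPKM in control livers. The groups were far apart (log2 fold change -1.86 ± 0.17, adjusted p = 1.82e-04). Gstm3 had the largest fold among glutathione transferases detected in both groups, at 3.15, 2.62 and 3.11 FPKM in knockout and 15.9, 38.7 and 25.7 FPKM in control livers (log2 fold change -2.89 ± 0.28, adjusted p = 2.16e-04). Gstm4 measured 12.2, 11.1 and 8.49 FPKM in knockout and 36.5, 50.4 and 41.9 FPKM in control livers, again without overlap (log2 fold change -1.97 ± 0.18, adjusted p = 1.86e-04). Gstm5 lies at the other end of the gene cluster from Gstm4. It averaged 11.4 ± 0.917 FPKM in knockout and 15.2 ± 4.10 FPKM in control livers (SD, n = 3 each) and was not called (limma adjusted p = 0.193). Log2 fold changes thus ran over a range of -2.89 to -0.37 within 1 gene cluster. Gstm2 and Gstm7 had smaller changes (log2 fold changes of -0.72 and -0.62); the Gstm2 call was lost without control 1 (adjusted p = 0.0663), and the Gstm7 call without knockout 2, knockout 3, control 1 or control 2 (adjusted p up to 0.0780).

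The theta class, whose members act on small halogenated molecules, fell in all 3 tested members. Gstt1 measured 65.7, 62.5 and 97.3 FPKM in knockout and 351, 337 and 275 FPKM in control livers. That is less in every knockout library than in any control (log2 fold change -2.11 ± 0.19, adjusted p = 1.54e-04). Gstt3 and Gstt2, beside it on chromosome 10, had log2 fold changes of -1.66 and -1.13. Single members of other classes changed less. The mitochondrial and peroxisomal enzyme Gstk1 had a log2 fold change of -0.76 ± 0.15 (adjusted p = 0.00474) and the omega enzyme Gsto1, which reduces dehydroascorbate, one of -0.62 ± 0.15 (adjusted p = 0.0128). The Gsto1 call was lost without control 2 (adjusted p = 0.0588) and with quantile normalisation (adjusted p = 0.124). Gstp1, the pi class enzyme, measured 121, 103 and 154 FPKM in knockout and 139, 222 and 224 FPKM in control livers. These ranges overlap through control 1, and the gene was not called (log2 fold change -0.61 ± 0.22, adjusted p = 0.0649). It passed without control 1 (log2 fold change -0.84, adjusted p = 0.0200), without knockout 3 and with libraries rescaled to the same total. Its share of the summed glutathione transferase FPKM was 15.95% ± 1.03 in knockout and 7.98% ± 1.90 in control livers (SD, n = 3 each), while that of Gsta3 was 20.99% ± 2.98 in knockout and 32.6% ± 1.51 in control livers. Gstp2, which shares 72.6% of its 50-base stretches with other genes, was listed at 0 throughout.

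**Figure D3:**
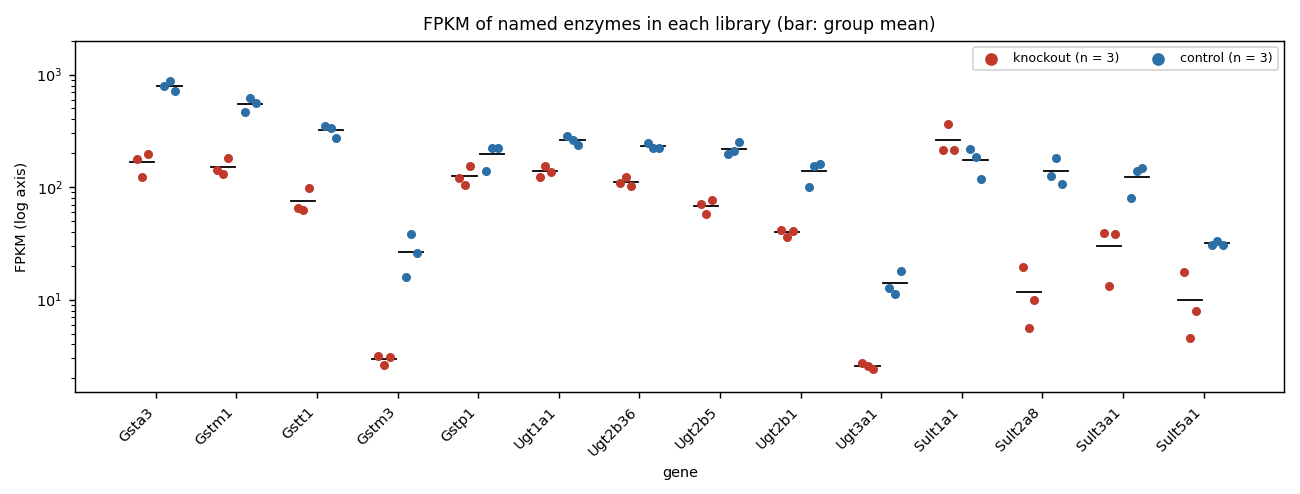
FPKM (log y axis) of 14 members (x axis) in each knockout (red, left) and control (blue, right) library, with the group mean as a bar. No library crosses between groups for the genes plotted except Gstp1 and Sult1a1, and Gstm3 and Ugt3a1 lie under 4 FPKM in all knockout libraries.

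Among glucuronosyltransferases, 12 of 15 tested members fell and 1 rose (80% lower, median log2 fold change -0.99). Ugt1a1, the enzyme that conjugates bilirubin, measured 123, 154 and 137 FPKM in knockout and 285, 262 and 238 FPKM in control livers. All knockout values lay below all controls (log2 fold change -0.92 ± 0.14, adjusted p = 0.00178). Ugt1a5 changed more, at 3.30, 3.91 and 5.82 FPKM in knockout and 28.7, 27.1 and 20.0 FPKM in control livers (log2 fold change -2.43 ± 0.23, adjusted p = 1.87e-04). Ugt1a6a and Ugt1a6b, which act on planar phenols, had log2 fold changes of -0.73 and -0.68 and lost their calls without control 2, without control 3, without knockout 2 and under other settings (adjusted p up to 0.102 and 0.164). Ugt1a9 measured 38.5, 59.0 and 22.04 FPKM in knockout and 52.5, 78.5 and 64.4 FPKM in control livers, where knockout 2 lay above control 1, and was not called (adjusted p = 0.0891). It passed without knockout 2 and with array weights (adjusted p of 0.0162 at the lowest of its alternatives). Ugt1a7c was the only member of the 45 that rose, at 3.66, 2.15 and 1.36 FPKM in knockout and 0, 0 and 0.545 FPKM in control livers (log2 fold change 2.098 ± 0.41, adjusted p = 0.00548). It was named after its values were seen. From 38.9% to 80.7% of the 50-base stretches of the Ugt1a transcripts occur in another gene, since the genes differ only in their first exons, so the split of reads among them is uncertain.

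The Ugt2 enzymes conjugate steroids, bile acids and drugs. Among 6 tested Ugt2b genes, 5 fell, as did Ugt2a3. Ugt2b36 was the most abundant of them over all libraries, at 109, 123 and 101.4 FPKM in knockout and 244, 221 and 225 FPKM in control livers. No library crossed between groups (log2 fold change -1.05 ± 0.13, adjusted p = 6.65e-04). Ugt2b5 measured 70.6, 57.2 and 77.5 FPKM in knockout and 197, 210.2 and 250 FPKM in control livers (log2 fold change -1.67 ± 0.16, adjusted p = 1.97e-04). Ugt2b1 measured 41.6, 36.4 and 41.0 FPKM in knockout and 99.3, 155 and 161 FPKM in control livers (log2 fold change -1.76 ± 0.19, adjusted p = 3.43e-04). Both lay well under control in every knockout library. Ugt2a3 averaged 50.4 ± 9.44 FPKM in knockout and 134 ± 7.32 FPKM in control livers (SD, n = 3 each, limma adjusted p = 4.21e-04), and Ugt2b34 53.9 ± 5.03 FPKM in knockout and 118 ± 11.8 FPKM in control livers (limma adjusted p = 5.94e-04). Ugt2b37 alone among the tested Ugt2 genes showed little difference in its means, at 2.91 ± 0.904 FPKM in knockout and 2.76 ± 0.945 FPKM in control livers (SD, n = 3 each, limma adjusted p = 0.868).

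The Ugt3a genes, whose human counterparts use UDP-sugars other than UDP-glucuronic acid, both fell. Ugt3a1 measured 2.72, 2.60 and 2.42 FPKM in knockout and 12.8, 11.1 and 18.1 FPKM in control livers. This is a clear separation (log2 fold change -2.21 ± 0.21, adjusted p = 1.97e-04). Its neighbour Ugt3a2 was more abundant and changed less, at 98.2, 93.3 and 95.4 FPKM in knockout and 182, 174 and 197 FPKM in control livers (log2 fold change -0.94 ± 0.12, adjusted p = 7.53e-04). Ugt8a, which makes galactosylceramide in myelin-forming cells, stayed at or below 0.131 FPKM in every library and was not tested.

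The sulfotransferases were mixed. Of 13 tested, 4 fell, none rose and 9 were not called (30.8% lower, median log2 fold change -0.53, or -0.58 without Sult1e1, which was listed at 0 in all controls). Over all genes tested, 13.0% were lower. At a mean of 5 FPKM or more, 3 of 9 sulfotransferases were lower (33.3%), against 20.1% of genes, so this family lay nearer the background than the other families. Sult2a8, a mouse enzyme that sulfates bile acids, had the largest fall of all members detected in both groups, at 19.5, 5.60 and 9.96 FPKM in knockout and 125, 183 and 107 FPKM in control livers. Its groups did not come near each other (log2 fold change -3.64 ± 0.38, adjusted p = 2.68e-04), and its knockout mean of 11.7 FPKM was 7.78 FPKM without knockout 1. Sult3a1, which sulfates amines, measured 39.1, 13.2 and 38.6 FPKM in knockout and 80.2, 139 and 148 FPKM in control livers (log2 fold change -2.101 ± 0.40, adjusted p = 0.00463). Sult5a1 measured 17.6, 4.56 and 7.87 FPKM in knockout and 30.7, 33.2 and 30.8 FPKM in control livers (log2 fold change -1.81 ± 0.38, adjusted p = 0.00727), with a knockout mean of 10.02 FPKM, or 6.21 FPKM without knockout 1. In all 3 genes, every knockout library was below every control, and knockout 2 was the lowest. Sult1c2 was the remaining fall (log2 fold change -0.99 ± 0.25, adjusted p = 0.0180). Leaving out knockout 2 or control 2 ended this call (adjusted p up to 0.0777).

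The phenol sulfotransferase Sult1a1, the most abundant of the family, did not follow. It measured 213, 360.3 and 212 FPKM in knockout and 220.0, 184 and 119 FPKM in control livers. Control 1 lay above 2 of the 3 knockout libraries, and the log2 fold change of 0.58 ± 0.27 was not called (adjusted p = 0.137), with a gain of the call under quantile normalisation (log2 fold change 0.91, adjusted p = 0.0233). Its share of the summed sulfotransferase FPKM was 52.2% ± 7.34 in knockout and 24.2% ± 1.60 in control livers (SD, n = 3 each). The estrogen sulfotransferase Sult1e1 was listed at 5.58, 21.1 and 0 FPKM in knockout livers and at 0 in all controls, and was not called (adjusted p = 0.0669), though it passed without knockout 3 (adjusted p = 0.00125). Sult1b1, which acts on thyroid hormones, had a log2 fold change of -0.53 (adjusted p = 0.0555) without overlap of its groups. It passed without knockout 2, without control 3, with array weights and with libraries rescaled to the same total (adjusted p of 0.0226 at the lowest of its alternatives). Sult1d1, which acts on catecholamines, had a log2 fold change of -0.47 (adjusted p = 0.339). These 3 Sult1 genes of chromosome 5 directly follow the Ugt2 cluster, of whose 7 tested members 6 were called lower.

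For the other tested Sult2a genes, which encode hydroxysteroid sulfotransferases, the group means differed by less than the SD of the controls. Sult2a1 measured 35.4, 63.7 and 41.5 FPKM in knockout and 145, 25.3 and 12.9 FPKM in control livers. Sult2a2 measured 51.7, 41.3 and 70.05 FPKM in knockout and 150, 63.2 and 42.1 FPKM in control livers. Control 1 was the highest of the 6 libraries for both, and also for Sult2a3, Sult2a5 and Sult2a6. None of these 5 was called (adjusted p of 0.265 to 0.776). The control mean of Sult2a1 was 61.0 FPKM, or 19.1 FPKM without control 1. Without that library, the log2 fold change of Sult2a1 was 1.31 and passed (adjusted p = 0.0269), against 0.32 ± 0.70 with it (its FPKM mean and its log2 mean differ in sign), and those of Sult2a2 and Sult2a3 changed sign (0.04 and 0.14). Of the 50-base stretches, Sult2a2 shares 62.1% with other genes, most often Sult2a1, and Sult2a8 shares 0%, so the split of reads between Sult2a1 and Sult2a2 is uncertain. Sult2a7, listed at 0 in all knockout libraries and at 1.16, 0.604 and 1.08 FPKM in control libraries, did not reach the filter.

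**Figure D4:**
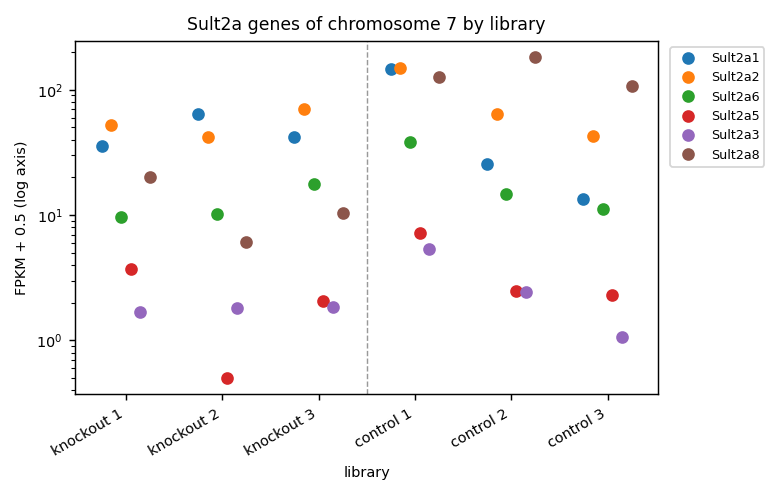
FPKM + 0.5 (log y axis) of 6 Sult2a genes in each library (x axis, knockout left of the dashed line, control right of it). Control 1 holds the highest point of every gene plotted except Sult2a8, which lies at 5.60 to 19.5 FPKM in knockout and 107 to 183 FPKM in control livers.

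Restricting the count to the 36 members that share under 10% of their 50-base stretches with other genes, a limit chosen after seeing the data, left 28 tested genes, of which 21 were lower (75.0%) and 0 higher. Of these, 10 of 11 glutathione transferases, 7 of 7 glucuronosyltransferases and 4 of 10 sulfotransferases were lower. Over all genes tested, whatever their sharing, 13.0% were lower and 14.1% higher, and 20.1% were lower at a mean of 5 FPKM or more.

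The supply of cofactors was lower in part. Over all genes tested, 13.0% were called lower and 14.1% higher, shares to set beside the counts of each gene list. For genes with a mean of 5 FPKM or more, the shares were 20.1% lower and 13.6% higher. Of 7 genes that make or move PAPS, 3 were lower and none higher (median log2 fold change -0.32). Papss2, the PAPS synthase abundant in liver, measured 34.7, 28.6 and 26.0 FPKM in knockout and 100.9, 103 and 93.5 FPKM in control livers. The groups were wide apart (log2 fold change -1.73 ± 0.14, adjusted p = 1.00e-04). The phosphatase Bpnt1, which clears the product left by sulfation, and the sulfate carrier Slc26a1 had log2 fold changes of -0.98 and -0.78. Of 5 genes for UDP-glucuronic acid, 1, the dehydrogenase Ugdh, named after its values were seen, was lower (log2 fold change -0.73 ± 0.17, adjusted p = 0.0125); without control 2 its adjusted p was 0.0586. The most abundant, Ugp2, averaged 120 ± 35.2 FPKM in knockout and 82.7 ± 1.27 FPKM in control livers (SD, n = 3 each) and was not called, although its groups did not overlap (limma adjusted p = 0.0814). Of 9 tested genes of glutathione synthesis and recycling, 6 were lower and 1 higher. Gclc, the catalytic subunit of the rate-limiting ligase, averaged 32.0 ± 7.08 FPKM in knockout and 61.5 ± 8.24 FPKM in control livers (SD, n = 3 each, limma adjusted p = 0.00479), and Cbs, which starts cysteine synthesis from homocysteine, 188 ± 29.6 FPKM in knockout and 357 ± 49.5 FPKM in control livers (limma adjusted p = 0.00353). Gsr, the glutathione reductase, was the gene that rose, with a log2 fold change of 0.66 ± 0.17 (adjusted p = 0.0180), and lost its call without knockout 3, control 1 or control 2 (adjusted p up to 0.0771). It was named after its values were seen. Of the 6 falls, those of Gclc and Cbs were called without any 1 library. Those of Ggct and Cth were lost without control 1 or control 2, that of Cth also without knockout 1, that of Gclm without control 1, and that of Gss in each of the 6 fits that left out a library (adjusted p up to 0.0597, 0.0693, 0.0536 and 0.151 for Ggct, Cth, Gclm and Gss).

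Of 13 tested genes for methylation, acylation and amino acid conjugation, 11 were lower and 1, the arsenic methyltransferase As3mt, named after its value was seen, was higher (log2 fold change 0.49, adjusted p = 0.0427, not called in 7 of 19 alternatives). Of the 11 falls, 7 were called without any 1 library, and among the others those of Nat2, Glyat and Hnmt were lost in at least 1 such fit (adjusted p up to 0.151, 0.0523 and 0.101). Inmt, an amine N-methyltransferase, measured 173, 177 and 184 FPKM in knockout and 714, 760.4 and 643 FPKM in control livers. No library crossed between the groups (log2 fold change -1.98 ± 0.13, adjusted p = 3.07e-05). Acsm1 and Acsm3, which activate medium-chain acids, had log2 fold changes of -1.43 and -1.28, and Nnmt, which methylates nicotinamide, one of -1.10. The microsomal transferase Mgst1, more abundant than any member, averaged 1942 ± 480.4 FPKM in knockout and 3569 ± 312 FPKM in control livers (SD, n = 3 each, limma adjusted p = 0.0131, and 0.0616 without control 2). Mgst3 and the zeta enzyme Gstz1 had log2 fold changes of -1.57 and -0.96. These were the 3 lower of 6 tested transferases of other classes, and the prostaglandin synthase Ptges, listed at 0 in all controls and at 0.926 to 1.94 FPKM in knockout livers, was higher (adjusted p = 0.00297). Of 8 tested genes that export conjugates, Abcc6, Abcg2 and Abcc3 were lower (log2 fold changes of -1.04, -0.92 and -0.58) and none was higher; the Abcc3 call was lost without knockout 1, control 2 or control 3 (adjusted p up to 0.0941), and that of Abcg2 without knockout 1 (adjusted p = 0.0504). Among 6 genes of conjugate and epoxide hydrolysis, the epoxide hydrolases Ephx1 and Ephx2 were lower (log2 fold changes of -0.90 and -1.14) and none higher, while the median of the 6 log2 fold changes was 0.11. The Ephx1 call was lost with quantile normalisation (adjusted p = 0.0691).

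**Figure D5:**
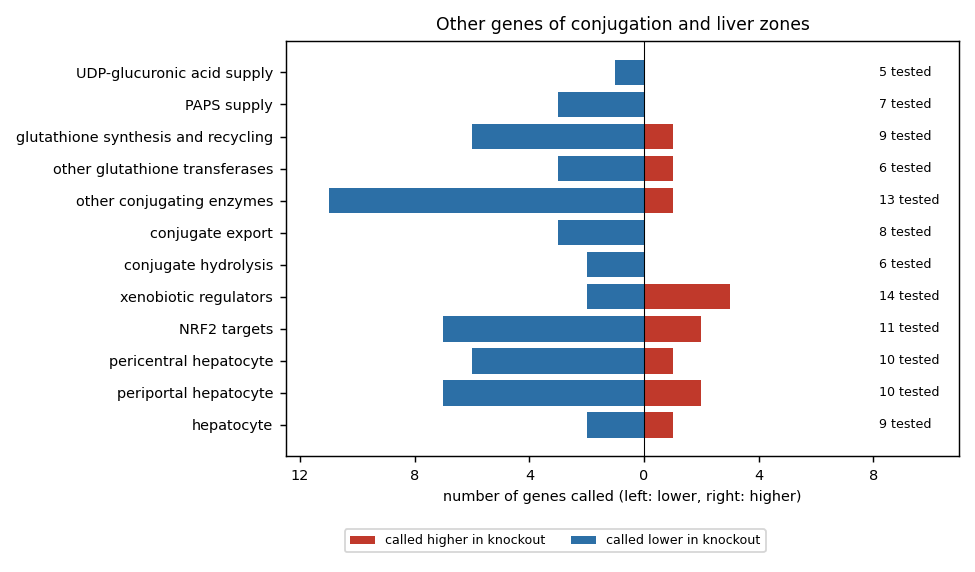
Number of genes called lower (blue, to the left) and higher (red, to the right) in knockout livers (x axis) in each gene list (y axis), with the number tested at the right. Other conjugating enzymes have 11 lower and 1 higher of 13 tested, and xenobiotic regulators 2 lower and 3 higher of 14.

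Of 14 tested regulators of these enzymes, 3 were higher and 2, Mafg and Hnf4a, lower (median log2 fold change -0.12), beside 14.1% higher and 13.0% lower over all genes tested. Among genes with a mean of 5 FPKM or more, 13.6% were higher and 20.1% lower. Nfe2l2, which encodes NRF2, averaged 33.6 ± 2.91 FPKM in knockout and 21.01 ± 1.99 FPKM in control livers (SD, n = 3 each, limma adjusted p = 0.00815). Its inhibitor Keap1 rose as well (log2 fold change 0.69 ± 0.14, adjusted p = 0.00703), as did Arnt, the partner of the aryl hydrocarbon receptor (log2 fold change 0.98 ± 0.18, adjusted p = 0.00398). The small Maf gene Mafg had a log2 fold change of -0.55 (adjusted p = 0.0260), with the call lost without each library except knockout 1. The xenobiotic receptor genes Nr1i2 and Nr1i3, named after their values were seen, had log2 fold changes of -0.10 and -0.39 (adjusted p = 0.629 and 0.205). Targets of NRF2 were split, with 7 lower and 2 higher of 11 tested, a list that shares 4 genes with those above. Of the 7 falls, 4 were called without any 1 library, and those of Nqo1, Gclm and Osgin1 were not. Hmox1, the heme oxygenase, measured 151, 162 and 217 FPKM in knockout and 37.5, 36.4 and 53.2 FPKM in control livers. G6pdx, which starts the pentose phosphate pathway, measured 14.2, 12.5 and 15.9 FPKM in knockout and 2.75, 3.39 and 7.78 FPKM in control livers. Both were higher in every knockout library, and the control mean of G6pdx, 4.64 FPKM, was 3.07 FPKM without control 3. Neutrophil and macrophage markers were higher in knockout livers too, and the part of these cells in both rises was not tested. Nqo1, a quinone reductase, measured 2.64, 6.85 and 4.97 FPKM in knockout and 7.32, 21.5 and 19.5 FPKM in control livers. Me1, the malic enzyme, measured 5.09, 5.68 and 7.69 FPKM in knockout and 15.8, 23.1 and 23.3 FPKM in control livers. These were lower in every knockout library (adjusted p = 0.0208 and 7.17e-04), though Nqo1 lost its call without knockout 1, control 2 or control 3 (adjusted p up to 0.0834).

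Markers of both ends of the liver lobule were lower beside the members. By comparison, 13.0% of all genes tested were called lower and 14.1% higher, and at a mean of 5 FPKM or more 20.1% and 13.6%. Of 10 pericentral genes, 6 were lower and 1, Gulo, higher, with Glul, the glutamine synthetase, at 43.4 ± 9.79 FPKM in knockout and 285.5 ± 12.9 FPKM in control livers (SD, n = 3 each, limma adjusted p = 2.35e-05). Of 10 periportal genes, 7 were lower and 2, Cdh1 and Hsd17b13, higher, with Hal, the histidine ammonia-lyase, at 31.4 ± 3.84 FPKM in knockout and 144 ± 20.2 FPKM in control livers (SD, n = 3 each, limma adjusted p = 4.86e-05). Of 9 tested hepatocyte markers without zone, 2 were lower (Ttr and Hnf4a, log2 fold changes of -1.24 and -0.43) and 1 higher (Fgb, 0.64), and the Hnf4a and Fgb calls were lost whichever library was left out. Leaving out 1 library also ended the calls of Rhbg, Ass1, Gulo, Cdh1 and Hsd17b13 in at least 1 fit, among them the fit without control 2 for all 5 (adjusted p up to 0.0710, 0.0873, 0.0504, 0.0667 and 0.0686). Of 9 tested genes with female-biased levels in mouse liver, 6 were lower and 1, Cyp17a1, higher, and of 5 tested male-biased genes 3 were lower (Elovl3, Cyp7b1 and Slco1a1). The Cyp7b1 and Slco1a1 calls were each lost without knockout 2, knockout 3, control 2 or control 3 (adjusted p up to 0.130 and 0.0636). The part of zone, inflammation or sex-biased regulation in the members' changes was not tested.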

How the data were processed

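Whole liver RNA of 3 knockout and 3 control libraries was compared. The authors deposited FPKM per gene and library; per the submitters' processing notes, the build was mm9 and the tools were Cuffnorm 2.2.1, Cuffdiff 2.2.1, TopHat2 2.1.0 and Trimmomatic 0.33. Which gene annotation they took is not stated there. FPKM hold no read numbers, so only relative depth was estimated, and very low values are uncertain. Alb was listed at 0 in all controls and at 59068, 73306 and 55705 FPKM in knockout libraries 1, 2 and 3. Its zeros may be a failed estimate, so it was left out of the tests and of the total used for rescaling; keeping it in the tests was an alternative.

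The 11842 genes averaging 0.5 FPKM or more were tested as log2(FPKM + 0.5) with limma 3.58.1 in R 4.3.3, with a mean-variance trend and Benjamini-Hochberg adjustment over all genes tested; calls need an adjusted p under 0.05. Every adjusted p given comes from limma. Checked on data simulated for this comparison (11842 genes), the fit recovered 45% of 100 genes shifted by a log2 fold change of 1, and 86% of 100 shifted by 2, and made 4 false calls. No other genes were shifted, whereas 1669 genes were called higher and 1534 lower in the data. The adjustment depends on the share of changed genes, so these recovery rates do not carry over to the data. Member positions, and 50-base stretches shared between transcripts, came from GENCODE release M21 (GRCm38), and promoters from RefSeq (GRCm38.p6); neither is the authors' build, and no coordinate was converted. In all, 19 alternatives were run, 6 of them leaving out a library.

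The members and the 19 gene lists were chosen with earlier results of these data known. Named are, per family, up to the 6 largest called rises and falls reaching 5 FPKM in the higher group, the 3 most abundant members and those at 0 in 1 whole group and at 5 FPKM or more in the other; per list, up to 4 called genes in order of the size of change, or its 2 most abundant genes if under 2 were called. All further members and list genes given by name were named after their values were seen.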

Additional observations from a re-analysis of the deposited data

How the results depend on the processing

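Of the 30 members called lower, 24 were called lower in every alternative that gave a value, and Gstm2, Gstm7, Gsto1, Sult1c2, Ugt1a6a and Ugt1a6b were not in some; none of the called members reversed. Of 14 members not called, 6 passed in some alternative. The number of members called lower was 25 to 29 without 1 library, against 30. The number called higher, 1, was 2 with quantile normalisation, 0 with genes at 0 in any library removed, 1 to 2 without 1 library and 0 among members sharing under 10% of their 50-base stretches, a limit chosen after seeing the data. Over all genes, 1534 were called lower, and 935 to 1484 without 1 library (990 without control 1, 935 without control 2); these fits hold fewer samples. The summed glucuronosyltransferase level, 45.4% of control, was 41.7% with libraries rescaled to the same total and 44.6% to 46.2% without 1 library. The Map3k7 log2 fold change, -0.04, ran over -0.0994 to 0.0621 without 1 library, reversing without knockout 3; the cause was not tested.

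Same-numbered libraries did not deviate together over the genes tested (correlations of -0.01, -1e-04 and 0.0015). These correlations cannot show whether such libraries share a batch that affects some genes. With the replicate number as a block, 2 members were higher and 32 lower, and Sult1e1 and Sult1b1 were among the members that passed (Sult1e1 adjusted p = 0.0331, limma). With 3 libraries a group and read numbers unknown, the counting error of members at low FPKM could not be given.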

Other observations

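Summed by subfamily, the alpha class of glutathione transferases was lowest relative to control, at 193, 143 and 219 FPKM in knockout and 861, 989 and 788 FPKM in control livers. The theta class summed to 113 ± 15.6 FPKM in knockout and 423 ± 62.5 FPKM in control livers (SD, n = 3 each). Ugt2b genes summed to 302, 290.5 and 308 FPKM in knockout and 694, 748.5 and 827 FPKM in control livers. In each of these the groups lay apart. The Sult1 genes stood out, with 275, 455 and 244 FPKM in knockout and 302, 265 and 178 FPKM in control livers, where the groups overlap. No test was run on these sums.

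Of the 15 members that were not tested, 6 were listed at 0 in every library: Gstp2, Gstt4, Ugt2a1, Ugt2a2, Sult1c1 and Sult4a1. Gsto2, Sult2a4, Sult2b1 and Ugt1a2 were above 0 in 1 control library each and Sult6b1 and Ugt2b38 in 1 knockout library each, none above 0.493 FPKM.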
